A study of Mus musculus with 51 samples.

Results

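HNF4a null liver was compared with control liver in 6 of the 51 samples of a mouse series on the transcription factors that keep the adult liver's gene program running. The libraries were chosen by name, as the 4 columns of the deposited expression matrix labelled HNF4a knockout and the 2 labelled HNF4a control, and the genes described are the 12434 of 33773 with at least 1 RPKM in at least 2 of these 6 libraries. RPKM is the authors' unit, read number scaled by the length of the gene and by the size of the library. The tissue is liver, and the series' design text says only that HNF4a was depleted in adult livers. The allele, the Cre driver, the strain, the sex and the age of these animals are not given in the sources used here. As a second contrast, the FoxA triple null hepatocytes (4 libraries) come from FoxA1L/L/FoxA2 L/L/FoxA3-/- mice given at 8 weeks an AAV8 vector in which the hepatocyte-specific Tbg promoter drives Cre. The FoxA3 null hepatocytes (4 libraries) come from the same transgenic line given a vector with GFP, so both of these groups lack FoxA3. Nothing in the labels says that libraries of one group come from separate animals, so every p-value measures only the spread between these libraries.

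HNF4a is a nuclear receptor found in hepatocytes and in epithelia of the gut, the kidney and the pancreas, and it binds DNA as a homodimer. In the liver it is known as a regulator that sits at a large share of active hepatocyte promoters and enhancers and sustains the genes for plasma proteins, lipoproteins, bile acids and drug metabolism. The FoxA proteins are forkhead factors that open chromatin at many of the same enhancers.

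The genes with the widest differences show the reach of the comparison on both sides. Serpina3k, a secreted serine protease inhibitor, Ces3a, a carboxylesterase of the endoplasmic reticulum, and Fabp1, the liver fatty acid binding protein, were abundant in control liver and fell to a trace in the libraries labelled HNF4a null. Cyp2a4, a steroid hydroxylase of the female liver, went the other way. Promoters of such genes are printed because a short sequence, the HNF4a motif CAAAGTCCA, was counted in front of the genes that fell and rose, with the shares given further down. Each stretch below is the 250 bases before the RefSeq start of the gene in build GRCm38.p6, written 5′ to 3′ on the gene's own strand, with any match to CAAAGTCCA or to the forkhead motif TGTTTAC in capitals. Fabp1 lies at chr6:71199629-71199878 on the plus strand, Cyp2a4 at chr7:26306942-26307191 on the plus strand, and neither stretch holds a match. Cyp3a11, the main testosterone-hydroxylating P450 of mouse liver, lies at chr5:145879855-145880104 on the minus strand with CAAAGTCCA at -109 and TGTTTAC at -198, counted in bases from the gene's start to the motif's first base. Cyp8b1, the sterol 12-hydroxylase that sets the amount of cholic acid, lies at chr9:121916306-121916555 on the minus strand with CAAAGTCCA at -67. Cyp2c70, which makes the muricholic acids of mouse bile, lies at chr19:40187287-40187536 on the minus strand with CAAAGTCCA at -64. Serpina3k and Ces3a had no entry in the promoter table.
Fabp1: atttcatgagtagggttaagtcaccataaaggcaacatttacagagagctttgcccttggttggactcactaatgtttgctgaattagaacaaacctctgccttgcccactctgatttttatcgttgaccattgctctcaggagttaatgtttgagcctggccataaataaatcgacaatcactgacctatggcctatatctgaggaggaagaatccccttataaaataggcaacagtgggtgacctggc
Cyp2a4: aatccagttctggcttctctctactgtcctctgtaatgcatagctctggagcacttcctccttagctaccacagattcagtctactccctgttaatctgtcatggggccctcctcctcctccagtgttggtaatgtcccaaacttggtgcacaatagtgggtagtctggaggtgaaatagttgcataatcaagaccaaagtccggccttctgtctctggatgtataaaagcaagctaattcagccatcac
Cyp3a11: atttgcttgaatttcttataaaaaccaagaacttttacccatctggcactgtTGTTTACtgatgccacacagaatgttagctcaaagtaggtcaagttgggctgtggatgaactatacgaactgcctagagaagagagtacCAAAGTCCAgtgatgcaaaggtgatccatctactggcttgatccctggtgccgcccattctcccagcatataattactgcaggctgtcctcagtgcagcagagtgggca
Cyp8b1: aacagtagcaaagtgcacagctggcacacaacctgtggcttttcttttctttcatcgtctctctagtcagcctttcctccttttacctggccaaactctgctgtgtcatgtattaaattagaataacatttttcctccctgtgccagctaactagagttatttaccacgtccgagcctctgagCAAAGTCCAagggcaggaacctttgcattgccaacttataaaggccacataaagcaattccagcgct
Cyp2c70: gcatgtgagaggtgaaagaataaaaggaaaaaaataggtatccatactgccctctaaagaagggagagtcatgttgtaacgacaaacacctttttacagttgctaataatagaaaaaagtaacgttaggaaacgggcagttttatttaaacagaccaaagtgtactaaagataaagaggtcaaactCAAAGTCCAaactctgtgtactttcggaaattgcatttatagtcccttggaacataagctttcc

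Hnf4a itself, the gene named in the label, was higher in the libraries labelled HNF4a null. Its RPKM was 126 and 118 in the control libraries C1 and C2, and 519, 545, 487 and 545 in the null-labelled libraries N1, N2, N3 and N4, the order in which values of the 6 libraries stand below. These names follow the alphabetical order of the barcodes in the column names and are not replicate numbers of the labels. All 4 null-labelled values lie above both controls, and the relative log2 difference was 1.76, SE 0.10, limma adjusted p = 2.51e-05. The matrix gives 1 value per gene, so reads from deleted exons cannot be told from reads of the rest of the gene, and this value neither checks nor refutes the deletion. Directions below therefore refer to the libraries by their label. Of the FoxA genes, Foxa2 stood at 6.14 and 6.22 RPKM in control and 5.10, 4.26, 3.28 and 5.62 in null-labelled libraries, with no overlap, but its difference of -0.72 missed the threshold (limma adjusted p = 0.112). Foxa1 and Foxa3 were not called, at -0.35 and -0.55.

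A difference here is the mean log2(RPKM + 1) of the 4 null-labelled libraries minus that of the 2 controls, and a relative difference is the same less 0.34, the median difference of all tested genes. Since 1 is added to each value, differences of genes with low RPKM are understated. A gene near 0 in 1 group passed the minimum of 1 RPKM in 2 libraries through the other group, so list counts favour genes with large differences. A gene is called, and said to have risen or fallen, where limma's Benjamini-Hochberg adjusted p is below 0.05 and the difference is at least 1 in size, both as deposited and relative to that median. By this rule 1166 of 12434 genes were called (9.38%), with 426 higher (3.43%) and 740 lower (5.95%) in null-labelled libraries, so 36.5% of calls were higher. Without the median step the counts were 1067 higher and 740 lower (59.0% higher), and from relative differences alone 426 and 1068 (28.5% higher). Differences of 16-fold or more were found in 130 of the genes that fell and 17 of those that rose. The middle 50 percent of tested genes lay between -0.35 and 0.30. Of the 1166 called genes, 1165 had groups that did not overlap, the exception being the predicted gene Gm13245, named after its values were seen. Over all tested genes 52.6% lay higher and 14.4% lay lower without overlap. Overlap was judged on deposited RPKM, which keeps the median difference of 0.34, so a lack of overlap is common among genes that lie higher. At an unadjusted p below 0.05, 2513 of the 12434 tested genes lay higher and 2973 lower. These are the background for the unadjusted counts given with the lists below.

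**Figure D1:**
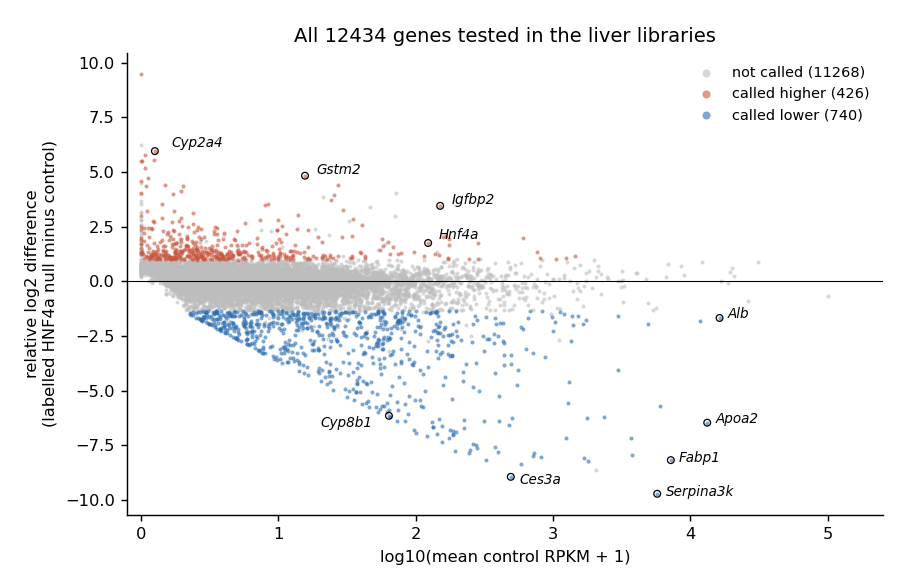
Relative log2 difference of each tested gene (null-labelled minus control, vertical axis) against log10 of its mean control RPKM + 1 (horizontal axis), with genes called higher, called lower and not called in separate colours. The 740 genes that fell reach -9.71 (Serpina3k), the named genes that rose reach 5.96 (Cyp2a4), and the highest point is a small RNA.

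The genes that fell include many abundant transcripts of the liver. Genes called lower held 19.9% and 19.7% of all summed RPKM in the control libraries, and 3.32%, 2.85%, 3.14% and 3.71% in the null-labelled ones. Genes called higher held 1.36% and 1.41% in control and 4.94%, 4.37%, 4.76% and 5.00% in null-labelled libraries. The share of genes called lower was 6.97% below a mean RPKM of 1, 4.17% from 1 to 10, 7.81% and 12.8% in the next steps up to 100 and 1000, and 15.4% of the 78 genes above 1000 RPKM. The share called higher was 0%, 3.40%, 3.53%, 6.23% and 8.97% in the same steps, so both shares were larger above 100 RPKM than below. Libraries of a group resembled each other closely across genes, with correlations of log2(RPKM + 1) of 0.967 to 0.971 among null-labelled libraries and 0.974 between controls, against 0.849 to 0.857 between the groups.

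Serpina3k had 5759.9 and 5693 RPKM in control liver and 4.45, 7.39, 6.35 and 15.6 in null-labelled libraries, a relative difference of -9.71, SE 0.40, limma adjusted p = 9.95e-06. Ces3a had 487 and 494 against 0.187, 0.189, 0.323 and 0.391 RPKM, a difference of -8.93, SE 0.10, limma adjusted p = 2.84e-07. Fabp1 had 7409.7 and 6982 against 17.5, 27.4, 27.9 and 64.1 RPKM, a difference of -8.17, SE 0.45, limma adjusted p = 3.51e-05. For these 3 genes the controls lie close together while the null-labelled libraries spread 2- to 4-fold at a trace level, and library N4 holds the highest of the remaining values each time. Cyp2a4 had 0.232 and 0.287 RPKM in control and 154, 61.3, 104 and 93.4 in null-labelled libraries, a rise of 5.96, SE 0.32, limma adjusted p = 2.36e-05. Every null-labelled library lies more than 100-fold above both controls for Cyp2a4, with N1 highest and N2 lowest. Cyp2a4 and its close copy Cyp2a5 can share reads, as can members of the Mup, Serpina1, Cyp2b, Cyp2c, Cyp2d, Ugt2b and Gstm families, so the split of reads within those families is uncertain. Cyp2a5 itself was not called, at -0.24.

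**Figure D2:**
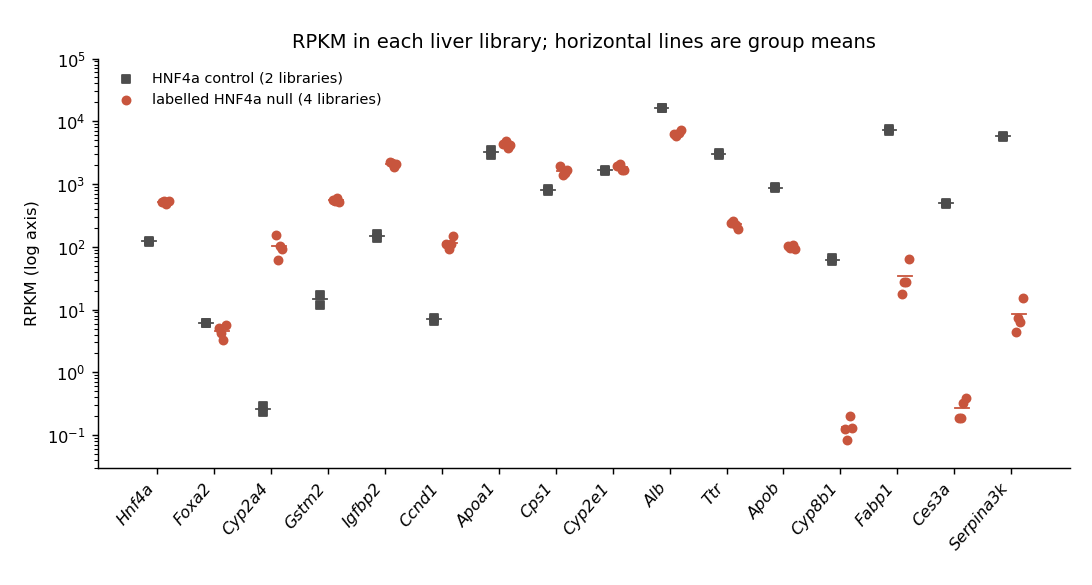
RPKM on a log axis of selected genes in each library, with squares for the 2 control libraries, circles for the 4 null-labelled libraries and lines at the group means. Serpina3k, Ces3a and Fabp1 separate by a factor of 100 or more downwards and Cyp2a4 upwards, while Hnf4a lies higher in null-labelled libraries.

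Among the named genes with the largest falls were 3 of the alpha-1-antitrypsin genes and 3 major urinary proteins, the pheromone carriers that male mice secrete. The 12 lowest with a standard symbol were Serpina3k, Ces3a, Serpina1b (-8.20), Fabp1, Mup17 (-8.14), Mup7 (-8.06), Serpina1a (-8.05), Mup14 (-7.98), Serpina1e (-7.93), Slc27a5 (-7.83), Mbl2 (-7.79) and Ces3b (-7.77). The highest were Cyp2a4, Cyp2b9 (5.76), Akr1b7 (5.57), Pnliprp1 (5.49), Ly6d (5.19), Gstm2 (4.83), Orm3 (4.72), Gstm3 (4.40), Slc22a26 (4.40), Defb1 (4.38) and Cyp2b10 (4.11). They hold drug- and steroid-metabolizing enzymes (Cyp2a4, Cyp2b9, Cyp2b10, Gstm2, Gstm3 and the aldo-keto reductase Akr1b7), an organic anion carrier (Slc22a26), a pancreatic lipase relative (Pnliprp1), a defensin (Defb1) and an acute phase glycoprotein (Orm3). Pnliprp1 had 0.0139 and 0.00944 RPKM in control and 61.3, 33.8, 71.6 and 68.5 in null-labelled libraries. Ly6d, a surface protein known from lymphocyte precursors and epithelia, had 0.146 and 0 against 57.1, 74.3, 57.9 and 22.3, and Orm3 had 0.261 and 0 against 34.2, 53.4, 29.6 and 32.5. With a control at 0, the differences of Ly6d and Orm3 depend on the 1 added to each value. Those of other genes near 0 in control depend on it too, and so does the order above. With 0.1 added in its place, Pnliprp1 stood at 8.57, Cyp2b9 at 8.38 and Cyp2a4 at 7.68. Small RNAs, predicted genes, clone symbols and pseudogenes were left out of these names: of 88 small RNAs 6 rose, and of the 1912 others 55 rose and 108 fell. Among the latter is 2810007J24Rik, at -8.34 a larger fall than that of Serpina1b, described with the conjugation enzymes.

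Plasma proteins made by hepatocytes did not move as a block. Of 16 tested hepatocyte identity genes 7 fell and 1 rose, with a median relative difference of -0.49, where the median over all tested genes is 0. Ttr, the thyroxine and retinol-binding-protein carrier, had 3113 and 2869 RPKM in control and 236, 259.6, 223 and 196 in null-labelled libraries (-4.05, SE 0.13, limma adjusted p = 5.4e-06). Albumin fell less, with 16213 and 16386 against 6244, 5883, 6421 and 7388 RPKM for Alb (-1.67, SE 0.16, limma adjusted p = 0.000843). The groups do not overlap for either gene, and Alb kept 39.8% of its control level. Apob and the cell-binding protein Vtn fell (-3.46 and -3.10), as did the iron carrier Trf and the heme scavenger Hpx (-1.97 and -1.77). Ambp, the precursor of a serum protease inhibitor, rose, from 1549 and 1322 to 4122, 3974, 3848 and 4103 RPKM (1.15). The retinol carrier Rbp4, the fetuin Ahsg and the vitamin D carrier Gc were not called, at -0.28, 0.34 and -0.19.

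Serpins, the serine protease inhibitors that circulate in plasma, fell in 14 of 27 tested members and rose in 1, with a median of -1.41. The 4 largest falls, in Serpina3k, Serpina1b, Serpina1a and Serpina1e, all concern abundant secreted members. Serpina1b had 1924 and 1674 RPKM in control and 3.43, 6.54, 4.24 and 18.9 in null-labelled libraries, while its near copies Serpina1c and Serpina1d fell less (-2.73 and -2.26). Serpinf1, the antiangiogenic factor PEDF, fell from 408 and 346 to 21.5, 24.5, 23.8 and 31.4 RPKM (-4.19). Serpina7, thyroxine-binding globulin, rose from 21.0 and 25.3 to 401, 474, 418 and 315 RPKM (3.71, SE 0.17, limma adjusted p = 1.24e-05). It is the single serpin called higher, and its groups do not overlap. Antithrombin (Serpinc1) stood at -0.10 and was not called. Without either control 10 were called lower of the 23 that then passed the minimum of 1 RPKM in 2 libraries.

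Apolipoproteins and the proteins that assemble lipoproteins fell in 14 of 25 tested members and rose in 1 (median -1.79), with 3 higher without N1 and 2 without C2, N3 or N4. Apoa2, a structural protein of high density lipoprotein, had 14223 and 12272 RPKM in control and 198, 228, 167 and 168 in null-labelled libraries (-6.46, SE 0.16, limma adjusted p = 1.72e-06). Apoc3, an inhibitor of triglyceride clearance, had 1846 and 1690.0 against 24.7, 26.9, 25.5 and 38.6 RPKM (-6.24, SE 0.19, limma adjusted p = 2.91e-06). In both genes the 4 null-labelled libraries lie close together, far below the controls. Apom, the carrier of sphingosine phosphate, and Apoa4 fell to a similar extent (-6.39 and -5.69). Apob, the backbone of very low density lipoprotein, had 883 and 868 against 101, 95.3, 108 and 93.4 RPKM (-3.46), and Mttp, which loads it with lipid, fell by the same order (-3.09). Gm6484, listed in RefSeq as Angptl8, an inhibitor of lipoprotein lipase, rose from 6.98 and 7.92 to 157, 66.7, 129 and 160.2 RPKM (3.52, SE 0.35, limma adjusted p = 0.000402), with the lowest null-labelled value in N2. Apoa1, the main protein of high density lipoprotein, was not called, with 2928 and 3512 against 4365, 4826, 3807 and 4176 RPKM (0.079). Apoa5 and Apoc1 were not called either, at -0.25 and -1.32.

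Coagulation and fibrinolysis genes fell in 9 of 28 tested members and limma called 0 higher, with a median of -0.61. At an unadjusted p below 0.05, 2 of the 28 lay higher and 18 lower, against 2513 and 2973 of all 12434 tested genes. F12, the contact-phase factor XII, had 198 and 191 RPKM in control and 0.949, 0.963, 0.791 and 1.77 in null-labelled libraries (-6.89, SE 0.18, limma adjusted p = 1.92e-06). Proz, F13b and the histidine-rich glycoprotein Hrg followed (-5.71, -5.62 and -4.55). The clotting factors F11, F9 and F5 fell less (-2.90, -1.85 and -1.65). Prothrombin (F2), plasminogen (Plg) and the fibrinogen chains Fga, Fgb and Fgg were not called, at -0.50, -0.46, 0.16, 0.49 and 0.11. F12 is thus close to absent in null-labelled libraries, where N2 is the highest in all 3 fibrinogen chains.

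Complement genes fell in 16 of 27 tested members and rose in 1, with a median of -1.92. Mbl2, a mannose-binding lectin that starts the lectin pathway, had 397 and 391 RPKM in control and 1.08, 1.15, 0.965 and 1.92 in null-labelled libraries (-7.79, SE 0.17, limma adjusted p = 8.77e-07). C8a and C8g, chains of the membrane attack complex, fell (-7.45 and -5.38), and so did C9 (-4.13). The third chain of the complex, C8b, fell less (-2.27), as did the regulators Cfi and C4bp (-3.17 and -2.79). C3, the central component, rose from 738 and 792 to 2265, 2886, 2349 and 2359 RPKM (1.34, SE 0.14, limma adjusted p = 0.000496), with no overlap.

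Acute phase genes split in both directions, with 9 of 30 tested members higher and 7 lower (median 0.04), and the 9 came down to 4 without control C2. Serum amyloids Saa1, Saa2 and Saa4 and C-reactive protein (Crp) fell (-3.12, -2.27, -2.80 and -2.56). Orm3, the metallothioneins Mt1 and Mt2 and the interleukin 1 antagonist Il1rn rose (4.72, 3.27, 2.81 and 2.70). Mt1 had 36.2 and 20.7 RPKM in control and 238, 537, 306 and 366 in null-labelled libraries. Lcn2, which binds bacterial siderophores, had 3.22 and 1.73 against 13.0, 84.0, 14.9 and 16.7 RPKM (2.49, SE 0.73, limma adjusted p = 0.0382). Its groups do not overlap, but N2 lies far above the other null-labelled libraries, and the call is lost without either control, without N3 and without N4. Fgl1, a secreted fibrinogen-like hepatokine, had 186 and 159 against 612, 1489, 687 and 794 RPKM (1.94), and its highest library is again N2. Calls for Mt2, Orm2 and Lbp (1.69 and 1.12 for the last 2) are lost without control C2, and that for Cp (1.01) without C2, N2 or N4. N2 held the highest null-labelled value in 23 of the 30 genes, against 28.4% of all tested genes.

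Major urinary proteins fell in all 19 tested members, and limma called 0 higher, with 0 higher also at an unadjusted p below 0.05 (median -5.69). Mup3 had 6363 and 5679 RPKM in control and 119.8, 198, 115 and 167 in null-labelled libraries (-5.69, SE 0.24, limma adjusted p = 1.16e-05). Mup7 had 2028 and 1349.5 against 12.6, 9.36, 3.29 and 5.22 RPKM (-8.06), and Mup20, the pheromone darcin, had 1287 and 1197 against 10.1, 9.58, 7.10 and 13.96 (-7.17). In all 3 the null-labelled values are a small fraction of control, and over the family N1 is the highest null-labelled library in 14 of the 19. These genes are near-identical and the split of reads among them is uncertain. Without either control 9 of them still passed the minimum of 1 RPKM in 2 libraries, and all 9 were called lower. In the full set 12 of the 19 passed it through the controls alone.

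Genes with a known sex bias in mouse liver were counted next. These lists share members with other lists, Mup7 with the major urinary proteins and Cyp2a4 with the cytochrome P450 genes among them. Their counts are therefore not separate from those of the other lists. Of 28 tested genes known as male-predominant, 25 fell and limma called 0 higher (0 also at an unadjusted p below 0.05), with a median of -3.87. Without either control 18 fell, of the 21 that then passed the minimum. Of the 28, 8 passed the minimum through the controls alone, and all 8 fell, while 19 passed it in each group and 17 of these fell. Of 34 female-predominant genes 17 were too low to test, and of the 17 tested 8 rose and 3 fell. Of these 17, 6 passed the minimum through the null-labelled libraries alone, where they are high, and all 6 rose. Of the 10 that passed it in each group 2 rose and 2 fell, so the count of female-predominant genes that rose rests mainly on genes near 0 in control. On the male side, Cyp4a12a, a fatty acid hydroxylase, had 104 and 95.6 RPKM in control and 0, 0.0660, 0.00426 and 0.0693 in null-labelled libraries (-6.94, SE 0.10, limma adjusted p = 5.08e-07). Slco1a1, an organic anion importer, and Hsd3b5, a steroid reductase, also fell (-6.78 and -5.99), and Elovl3, which lengthens very long fatty acids, fell (-4.15). On the female side, Cyp2b9, a steroid hydroxylase, had 0.0418 and 0.0854 RPKM in control and 81.6, 40.3, 92.4 and 86.7 in null-labelled libraries (5.76, SE 0.33, limma adjusted p = 2.96e-05). Akr1b7 had 0.200 and 0.277 against 90.4, 52.0, 73.5 and 83.3 RPKM (5.57, SE 0.22, limma adjusted p = 5.53e-06). The controls are near 0 for both genes and N2 is the lowest of the null-labelled libraries for both. Cyp4a10, Cyp4a14 and Sult1a1 are the female-predominant genes that fell (-2.85, -2.50 and -2.59). The labels give no sex, and the Y-linked genes Ddx3y, Eif2s3y, Kdm5d and Uty were present in all 6 libraries, with none called (0.064 to 0.38; 2 of the 4 higher at an unadjusted p below 0.05). Xist did not exceed 0.0336 RPKM in any of the 6.

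**Figure D3:**
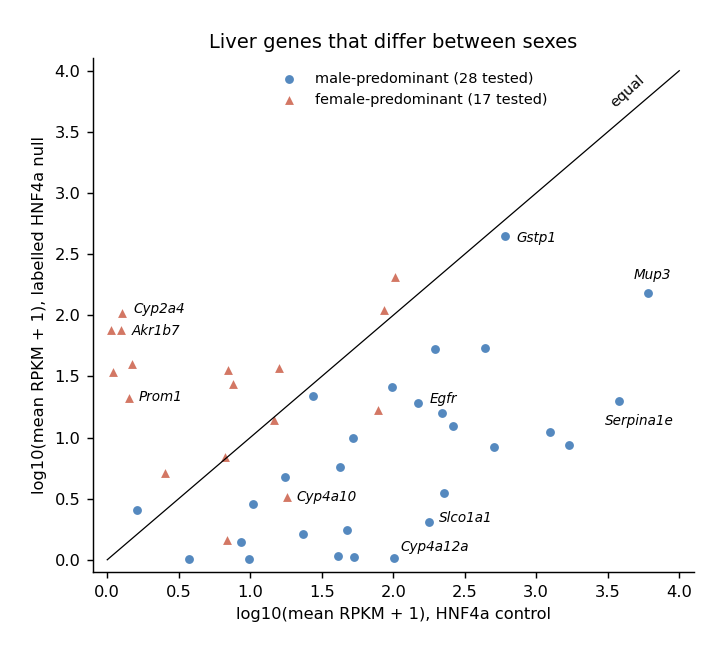
Log10 of mean RPKM + 1 in null-labelled libraries (vertical axis) against control (horizontal axis) for 28 male-predominant genes (circles) and 17 female-predominant genes (triangles), with a line where both are equal. The male-predominant genes lie below the line in all but a few cases, and Cyp2a4 and Akr1b7 stand far above it at the left.

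Growth hormone signalling, which is known to set much of that sex bias, was represented by 20 tested genes, of which 3 rose and 3 fell (median -0.76). With 1 library left out 2 or 3 were higher, and 5 were lower without control C1 or without N4. The growth hormone receptor Ghr had 173 and 171 RPKM in control and 29.2, 24.2, 31.9 and 29.1 in null-labelled libraries (-2.89, SE 0.12, limma adjusted p = 1.51e-05). Its main secreted product Igf1 had 187 and 179 against 46.5, 39.1, 37.9 and 45.7 RPKM (-2.43, SE 0.11, limma adjusted p = 3.09e-05). Igfbp2, a binding protein for the same hormone, rose from 140.2 and 159 to 2233, 2156, 1850.4 and 2093 RPKM (3.45, SE 0.12, limma adjusted p = 4.08e-06), and the prolactin receptor Prlr rose from 14.04 and 14.5 to 46.9, 34.97, 56.4 and 55.6 RPKM (1.33). The groups do not overlap for any of these 4 genes. The signal transducers Stat5a and Stat5b and the kinase Jak2 were not called, at -0.022, 0.55 and 0.13. The feedback inhibitors Cish and Socs2 were not called, at -1.52 and -1.23.

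Bile acid synthesis genes fell in 8 of 15 tested members, and limma called 0 higher (1 higher at an unadjusted p below 0.05), with a median of -1.37. Slc27a5, which activates bile acids with coenzyme A, had 772 and 676 RPKM in control and 2.92, 1.69, 4.70 and 3.35 in null-labelled libraries (-7.83, SE 0.27, limma adjusted p = 5.53e-06). Baat, which conjugates them to taurine or glycine, had 134 and 125 against 0.724, 0.817, 1.15 and 0.936 RPKM (-6.44, SE 0.12, limma adjusted p = 5.27e-07). Cyp8b1, whose promoter is printed above, had 66.2 and 59.3 against 0.127, 0.0839, 0.206 and 0.132 RPKM (-6.14, SE 0.10, limma adjusted p = 5.08e-07). All 3 enzymes are below 5 RPKM in every null-labelled library. Cyp7a1, the rate-limiting enzyme of the classical pathway, had 175 and 170.0 against 94.4, 50.3, 88.2 and 118 RPKM (-1.37, SE 0.31, limma adjusted p = 0.0287). It fell only just past the threshold, and its call is lost without either control, without N2 and without N3. Cyp2c70 and Cyp7b1 fell (-4.39 and -2.76), while Cyp27a1, which starts the alternative pathway, was not called at -0.11.

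Carriers of bile acids and organic anions changed in both directions, with 8 of 20 lower and 5 higher (median -0.36), and with 5 lower of the 18 that passed the minimum without control C1. Several importers on the blood side fell, among them Slc10a1, the sodium-dependent bile acid importer, with 181 and 173 RPKM in control and 22.3, 13.0, 18.4 and 29.1 in null-labelled libraries (-3.43, SE 0.28, limma adjusted p = 0.000269). Slco1a1, Slco2b1, Slc22a7 and Slco1b2 fell as well (-6.78, -4.50, -3.15 and -1.91). Some exporters rose, with Abcb11, the bile salt export pump, at 104 and 88.8 against 321, 265, 317 and 330.3 RPKM (1.33, SE 0.13, limma adjusted p = 0.000335) and the basolateral exporters Abcc3 and Ostb at 1.61 and 1.53. One importer, Slco1a4, rose (1.80), and the exporter Abcg2 fell (-1.43), a call that is lost without control C1. The call of Abcb1a (1.12) is lost without control C2. Abcc2 and Abcb4 on the canalicular side were not called, at 0.34 and 0.49.

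Cholesterol synthesis fell across its length, with 19 of 25 tested genes lower and 0 called higher by limma (1 higher at an unadjusted p below 0.05, and 1 called without C1 or N4) and a median of -1.71. Sc5d, a sterol desaturase late in the pathway, had 176 and 189.9 RPKM in control and 21.96, 21.8, 20.2 and 23.0 in null-labelled libraries (-3.35, SE 0.09, limma adjusted p = 2.5e-06). Pmvk and Fdps, which act near its start and at the prenyl step, fell (-2.62 and -2.33). Insig1, which holds back the sterol sensor, fell (-2.77). The cyclase Lss also fell (-1.51), a call that is lost without control C2. Srebf2, the factor that drives this pathway, was not called at -0.33, and Insig2 was not called at 0.95.

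Fatty acid synthesis fell in 7 of 23 tested genes and rose in 1 (median -0.80), and the 7 came down to 4 without control C2, while 2 were higher without N2. Scd1, the main stearoyl desaturase of liver, had 1436 and 1152 RPKM in control and 72.9, 38.4, 85.7 and 77.3 in null-labelled libraries (-4.61, SE 0.32, limma adjusted p = 0.000119). The desaturase Fads2 and the elongase Elovl5 of polyunsaturated fatty acids fell (-2.88 and -2.33). Acly, Acaca, Fasn and Srebf1, the core enzymes and their regulator, were not called, at 0.10, 0.97, -1.04 and -0.69. The lipase-like Pnpla3 rose (1.19).

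Fatty acid uptake and oxidation fell in 9 of 34 tested genes and rose in 2 (median -0.46). Bdh1, which makes the ketone body beta-hydroxybutyrate, had 139 and 127 RPKM in control and 0.847, 0.366, 0.119 and 1.69 in null-labelled libraries (-6.67, SE 0.33, limma adjusted p = 2.43e-05), and Fabp2 fell with Fabp1 (-5.55). Ppara, the receptor that induces fat oxidation, fell from 63.1 and 52.4 to 13.8, 11.9, 11.7 and 10.4 RPKM (-2.52, SE 0.13, limma adjusted p = 4.88e-05). Among genes known as its targets, Cyp4a10 and Cyp4a14 fell (-2.85 and -2.50), while Pdk4 and Acot1 rose (2.05 and 2.53). Targets of Ppara were not counted as a list. The mitochondrial steps Cpt1a, Acadm and Hadha were not called, at -0.79, 0.29 and 0.22. Of 18 genes of lipid droplets 3 rose and 2 fell (1 without C2, 3 without N3), with the droplet proteins Cideb and Fitm1 lower (-4.55 and -4.17) and the lipid receptors Vldlr and Cd36 higher (2.32 and 1.82). The third that rose, the droplet coat Plin2 (1.05), loses its call without C2 or N4.

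Glucose genes fell in 8 of 22 tested members and rose in 1 (median -1.04). G6pc, the phosphatase that releases glucose from the liver, had 243 and 125 RPKM in control and 7.85, 47.8, 14.9 and 27.0 in null-labelled libraries (-3.40, SE 0.66, limma adjusted p = 0.00844). The 2 controls differ widely, N2 is the highest null-labelled value, and the call is lost without control C1. In fructose metabolism, the fructokinase Khk and the triokinase Dak fell (-2.38 and -3.79). Pklr, the liver pyruvate kinase, and Pcx, pyruvate carboxylase, fell (-2.36 and -2.04). Pck1, Fbp1 and the glucose carrier Slc2a2 were not called, at -1.47, -0.38 and 0.15. Glycolytic isoforms that other tissues use were mostly not called, with 2 of 15 higher (1 without C1 or N4) and 2 lower, among them Hk2 at 1.25 and Aldoc at -1.94.

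In the urea cycle and ammonia list 3 of 15 tested genes fell and 1 rose (median -0.52). Of the steps of the cycle given here, only Otc was called. Otc, ornithine transcarbamylase, had 184 and 164 RPKM in control and 0.175, 0.416, 0.342 and 1.63 in null-labelled libraries (-7.15, SE 0.31, limma adjusted p = 1.35e-05). Cps1, the step before it, had 764 and 831 against 1967, 1396, 1509 and 1668 RPKM and was not called (0.69). Otc is thus near 0 in all 4 null-labelled libraries. Ass1 and Asl, the steps after it, were not called, at 0.20 and -0.52. The glutamine carrier Slc38a3 fell (-1.96), and the ammonium channel Rhbg fell (-1.45), the latter not without control C1.

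Amino acid breakdown fell in 13 of 40 tested genes and rose in 1 (median -0.74). Haao and Kmo, both enzymes of the kynurenine route from tryptophan to NAD, fell, Haao from 255 and 237 to 0.592, 0.144, 0.165 and 1.31 RPKM (-7.71, SE 0.29, limma adjusted p = 7.51e-06) and Kmo to a lesser extent (-5.75). The first enzyme of that route, Tdo2, was not called, at 0.10. Prodh2, which oxidizes hydroxyproline, Uroc1 of histidine breakdown and Csad of taurine synthesis fell (-6.06, -4.80 and -4.76). Oat, ornithine aminotransferase, rose from 176 and 153 to 1112, 959, 832 and 701 RPKM (2.09, SE 0.19, limma adjusted p = 0.000281). Mat1a and Gpt lay near the median of all genes and were not called, at -0.046 and -0.031. N1 was the highest null-labelled library in 24 of the 40 genes, against 25.97% of all tested genes.

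Cytochrome P450 genes, which oxidize drugs and steroids, fell in 28 of 47 tested members and rose in 3, with a median of -2.38, and without either control 20 were lower of the 38 or 39 that then passed the minimum. Of the 47, 10 passed the minimum through the controls alone and all 10 fell, 3 passed it through the null-labelled libraries alone and all 3 rose, and of the 33 that passed it in each group 18 fell. Cyp3a11, whose promoter is printed above, had 2705 and 2005 RPKM in control and 23.2, 43.1, 33.3 and 66.5 in null-labelled libraries (-6.21, SE 0.38, limma adjusted p = 6.38e-05). Cyp2f2, which oxidizes naphthalene, had 271 and 283 against 0.267, 0.572, 0.311 and 2.99 RPKM (-7.61, SE 0.46, limma adjusted p = 5.59e-05). Control values of both lie far above every null-labelled value. Cyp2a12 and Cyp2c50 fell by as much (-7.50 and -7.35). The 3 that rose were Cyp2a4, Cyp2b9 and Cyp2b10, the last from 1.48 and 0.435 to 52.5, 29.4, 42.2 and 40.4 RPKM. Cyp2e1 and Cyp1a2, which are confined to hepatocytes around the central vein, were not called, at -0.20 and -1.03.

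Conjugation enzymes, which attach sugar, sulfate or glutathione, fell in 15 of 43 and rose in 7 (median -0.69). The largest differences of the list were falls, in 2810007J24Rik (listed in RefSeq as the sulfotransferase Sult2a8), Ugt3a2, the glycine acyltransferase Glyat and Ugt2b1 (-8.34, -7.04, -6.97 and -6.35). Glutathione transferases of the mu class rose, Gstm2 from 17.2 and 12.02 to 565, 536, 591 and 523 RPKM (4.83, SE 0.15, limma adjusted p = 2.13e-06) and Gstm3 from 26.2 and 26.3 to 817, 566, 866 and 691 (4.40, SE 0.18, limma adjusted p = 6.78e-06). For both genes the 4 null-labelled libraries lie within a factor of 2 of each other. Gstm1 rose less (1.99), and Gstm4, Gstm5, Gstm6 and Gstm7 were not called, at -0.69, 0.40, 0.24 and 0.13. Sult1e1, the estrogen sulfotransferase, rose from 0.133 and 0.0678 to 19.9, 11.1, 8.39 and 10.2 RPKM (3.20). In the oxidative stress list 1 of 17 genes rose, Gstm3, and limma called 0 lower (1 lower without C2), with 4 higher and 7 lower at an unadjusted p below 0.05, and Nqo1, Gclc and Gsta1 stood at -0.60, -1.16 and -1.40. At that unadjusted limit 2513 of all 12434 tested genes lay higher and 2973 lower. Carboxylesterases and paraoxonases fell in 9 of 16 and rose in 1 (median -2.28), with Ces3a, Ces3b, Ces2e and Ces2a lowest (-6.85 and -6.56 for the last 2). The one called higher, Ces1c (1.07), loses its call without control C1.

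**Figure D4:**
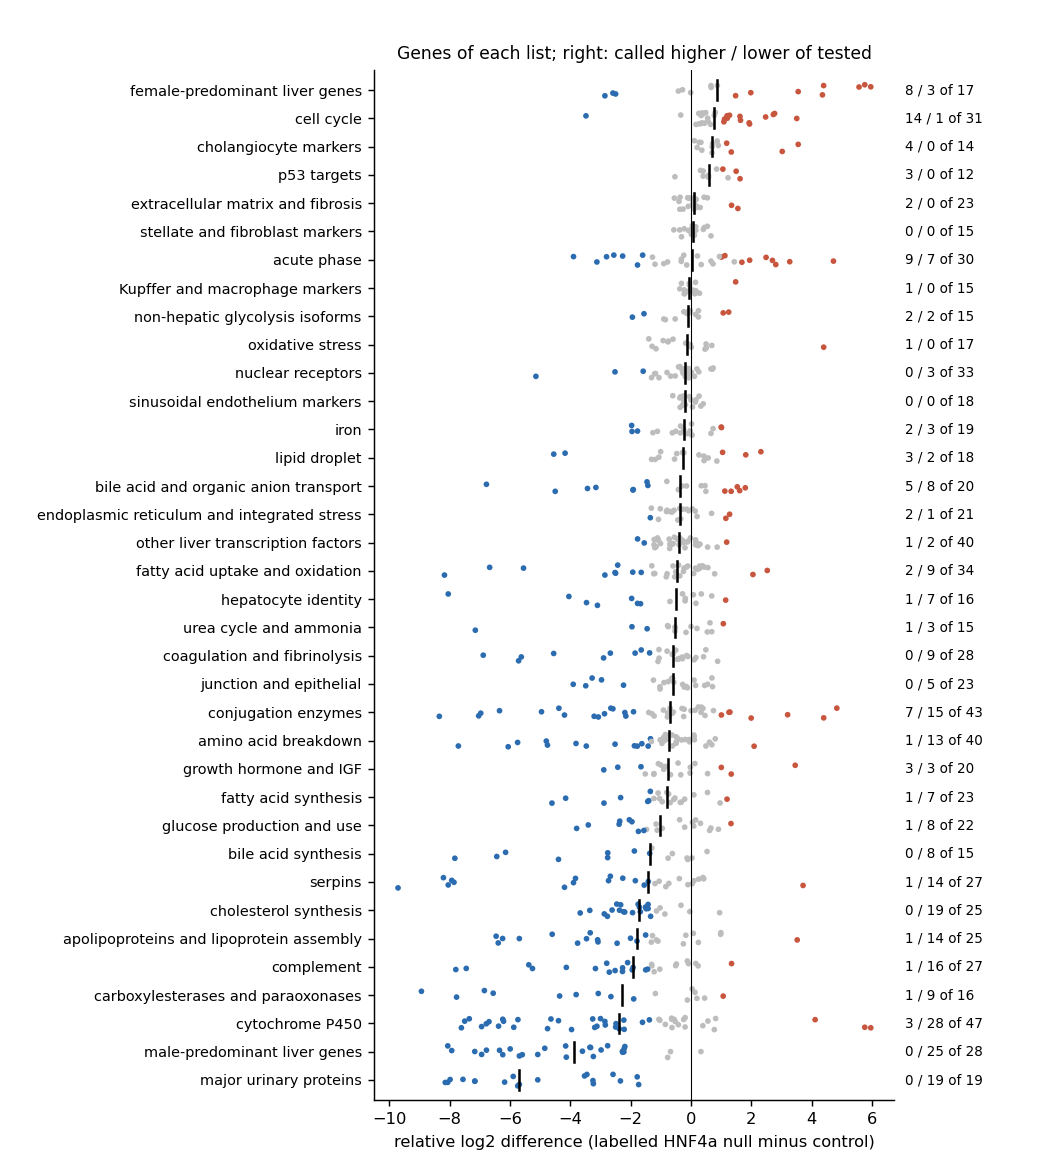
Relative log2 difference (horizontal axis) of every tested gene in each gene list with at least 12 tested genes, 1 row per list, with a black bar at the list's median and the counts called higher and lower at the right. Major urinary proteins have the lowest median (-5.69), the male-predominant genes lie at -3.87 and the cytochrome P450 genes at -2.38, while the cell cycle list has its median at 0.77.

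Calls among regulators of transcription stood near the 9.38% called over all tested genes. Of 33 tested nuclear receptors 3 fell and limma called 0 higher, with a median of -0.19. At an unadjusted p below 0.05, 3 of the 33 lay higher and 12 lower, against 2513 and 2973 of all 12434 tested genes. Nr1i3, the constitutive androstane receptor that induces drug metabolism, had 54.0 and 48.5 RPKM in control and 0.826, 0.545, 1.09 and 1.07 in null-labelled libraries (-5.14, SE 0.15, limma adjusted p = 2.85e-06). Every null-labelled library lies near 1 RPKM. Cyp2b10, the gene best known as a target of this receptor, is among the genes that rose. Ppara fell as given above. The bile acid receptor Nr1h4, its target Nr0b2, the liver receptor homolog Nr5a2, the pregnane receptor Nr1i2 and the paralog Hnf4g were not called, at -1.17, 0.26, 0.20, -0.073 and 0.66. Of 40 other liver transcription factors 2 fell and 1 rose (2 higher without N4; median -0.39). Cebpa fell from 52.4 and 56.2 to 20.4, 17.3, 19.8 and 20.5 RPKM (-1.77, SE 0.10, limma adjusted p = 9.57e-05), and Bcl6, a repressor of the male liver, fell (-1.55), though not without control C1. Sox9, a factor of biliary and progenitor cells, rose from 0.160 and 0.183 to 2.87, 2.42, 2.08 and 2.13 RPKM (1.18). Onecut1, which stands with HNF4a in the core liver network, was not called, at -1.16.

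Cell cycle genes rose in 14 of 31 tested members and fell in 1 (median 0.77), with 9 higher without control C2 and 10 without C1. Of the 31, 17 passed the minimum through the null-labelled libraries alone, of which 7 rose, and of the 13 that passed it in each group 7 rose. Ccnd1, the cyclin that starts the cycle, had 6.60 and 7.32 RPKM in control and 109.9, 91.2, 110.3 and 148 in null-labelled libraries (3.51, SE 0.18, limma adjusted p = 2.03e-05). Mcm5, a subunit of the replicative helicase, had 0.581 and 0.749 against 11.04, 10.3, 13.96 and 17.4 RPKM (2.73, SE 0.21, limma adjusted p = 0.000114). The 6 helicase subunits Mcm2, Mcm3, Mcm4, Mcm5, Mcm6 and Mcm7 all rose, from 1.09 in Mcm7 to 2.73 in Mcm5, and the maintenance methylation factor Uhrf1 rose (2.77). The mitotic genes Mki67, Ccnb1 and Aurka were not called, at 0.26, 0.37 and 0.45, and Cdk1 (1.28) and Top2a (1.20) rose. Mcm10, which loads onto the same helicase, goes the other way, with 43.9 and 71.8 RPKM in control and 4.797, 4.22, 7.21 and 6.02 in null-labelled libraries (-3.48, SE 0.25, limma adjusted p = 0.000158). N4 held the highest null-labelled value in 25 of the 31 genes, against 30.3% of all tested genes. Calls of Top2a are lost without either control, those of Mcm7 without C2 or N4, and that of Cdk1 without C2, N3 or N4. Among targets of p53, a brake on the cycle, 3 of 12 rose, and limma called 0 lower (0 also at an unadjusted p below 0.05). Of the 12, 4 passed the minimum through the null-labelled libraries alone and hold 2 of the 3 that rose. The kinase inhibitor Cdkn1a had 1.23 and 0.968 RPKM in control and 6.20, 7.60, 6.13 and 6.04 in null-labelled libraries (1.50), and Phlda3 and Eda2r rose too (1.63 and 1.06).

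In the list of endoplasmic reticulum and integrated stress 2 of 21 tested genes rose (Trib3 1.28 and Psat1 1.16) and 1 fell (Asns -1.35). The call of Psat1 is lost without either control and without N2, and that of Asns without C1, N1, N3 or N4. Both genes that rose passed the minimum through the null-labelled libraries alone, and of the 17 that passed it in each group 0 were called higher by limma. The chaperone Hspa5 and the factor Ddit3 were not called, at -0.34 and -0.077. With 1 library left out 1 or 2 of these genes were higher and 0 to 2 lower, and N2 held the highest null-labelled value in 17 of the 21 genes. Genes of iron handling fell in 3 of 19 and rose in 2 (0 without N2, 1 without either control and 1 without N1 or N4). Hamp, the hormone hepcidin, was not called at -0.24. Junction genes fell in 5 of 23 (3 without either control), and limma called 0 higher (3 higher at an unadjusted p below 0.05). Of the 5 that fell, 3 passed the minimum through the controls alone, and of the 18 that passed it in each group 2 fell. Those that fell were Gjb2, Cldn2, Cldn14, Cldn1 and the adhesion protein Ceacam1 (-3.90, -3.49, -3.28, -2.97 and -2.24). Of 10 genes of the fetal and oncofetal list Ly6d rose (2 higher without N1) and Gjb2 fell, H19 was not called at 1.27, and Afp stayed under 1 RPKM in every library.

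Markers of other liver cells were counted because the tissue is whole liver, where fewer cells of a type and less RNA per cell cannot be told apart. Of 14 tested cholangiocyte markers 4 rose and limma called 0 lower (0 also at an unadjusted p below 0.05), and their summed RPKM was 21.0 to 21.2 in control and 147 to 248 in null-labelled libraries. Of the 14, 12 passed the minimum through the null-labelled libraries alone. Spp1, osteopontin, rose from 13.2 and 12.7 to 101, 198, 130.4 and 158 RPKM (3.02, SE 0.25, limma adjusted p = 0.000167), and Prom1, a stem cell and biliary surface protein, rose from 0.514 and 0.312 to 17.9, 17.8, 25.9 and 18.9 RPKM (3.55, SE 0.17, limma adjusted p = 1.43e-05). The defining markers Krt19 and Epcam were not called, at 0.36 and 0.71, and Krt7 and Cftr were too low to test. Of 15 stellate cell markers limma called 0, and 5 lay at an unadjusted p below 0.05, as did 5486 of all 12434 tested genes. Their summed RPKM was 143 to 162 in control and 185 to 212 in null-labelled libraries. Of 18 endothelial markers limma called 0 (7 at an unadjusted p below 0.05, against the same 5486 of 12434), with summed RPKM of 245 to 271 and 308 to 329. Of 15 macrophage markers 1 rose, the scavenger receptor Marco (1.48), with summed RPKM of 204 to 213 and 245 to 302. The sums in this paragraph are of deposited RPKM and keep the median difference of 0.34 of all tested genes. Median relative differences of the stellate, endothelial and macrophage lists were 0.050, -0.20 and -0.050. Of 23 genes of the extracellular matrix 2 rose, Fn1 and Anxa2 (1.55 and 1.34), the former not without control C1. The neutrophil markers summed to 10.2 to 10.9 and 17.3 to 30.6, with 0 of 5 called by limma (2 at an unadjusted p below 0.05; 2 of 4 called higher without N1 and 1 of 5 without N4) and Ly6g at 0 in every library. Lymphocyte markers summed to 3.32 to 4.81 and 4.55 to 7.50, with 1 of 17 high enough to test. Red cell markers summed to 312 to 347 in control and 202 to 610 in null-labelled libraries, and Alas2, the first enzyme of heme synthesis in red cells, fell from 77.5 and 56.1 to 6.97, 9.84, 6.24 and 10.8 RPKM (-3.19) while the globins were not called. Of 13 markers of other tissues, only Cela1 was high enough to test, and it fell (-1.77). The part of these cells in the changes given above was not tested.

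The transcripts that remained differed between the null-labelled libraries. Over 604 genes that fell and had at least 5 RPKM in control, the median remaining level was 17.9%, 19.6%, 18.0% and 18.1% of control in N1, N2, N3 and N4. Over the 130 of these with a relative difference of -4 or lower it was 0.764%, 0.793%, 0.858% and 1.34%. N4 was the highest of the 4 in 65 of those 130 genes (50.0%), against 30.3% of all tested genes. The typical gene that fell thus kept a similar level in the 4 libraries, and the genes closest to absent kept most in N4.

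CAAAGTCCA, in either orientation, lay within 250 bases before to 50 bases after a RefSeq start in 17 of 492 genes that fell (3.46%) and in 0 of 271 that rose. The share was 0.645% of the 8212 tested genes whose symbol was in the promoter table and 0.555% of all 27025 genes there. Among genes that fell by 4 or more on the log2 scale 9 of 97 held it (9.28%), against 8 of 395 that fell by less (2.03%). TGTTTAC, the forkhead motif, was found in 3.86% of genes that fell, 5.90% of those that rose and 3.20% of all tested. The direct repeat known as DR1, AGGTCA and AGGTCA with any base between them, was in 3 of 8212 tested genes and in 0 that were called. The motifs were searched as written on both strands, and none of the 3 contains another. The genes below fell by 4 or more and hold CAAAGTCCA, printed in capitals with 10 bases on each side, 5′ to 3′ on the strand that reads CAAAGTCCA, to show what surrounds it. The positions are chr5:145879945-145879973 for Cyp3a11, chr9:121916354-121916382 for Cyp8b1, chr3:98763106-98763134 and chr3:98762389-98762417 for both starts of Hsd3b3, chr7:44465373-44465401 for Aspdh, chr8:60506042-60506070 for Aadat, chr3:96830069-96830097 for Pdzk1, chr19:40187332-40187360 for Cyp2c70, chr5:87536179-87536207 for Sult1b1 and chr17:85028298-85028326 for Slc3a1. The motif lies on the gene's own strand except in Hsd3b3 and Aadat, and it starts before the gene's start except in Hsd3b3, Pdzk1 and Sult1b1, where it lies just after it. A match is a description of these letters and not evidence of binding.
Cyp3a11: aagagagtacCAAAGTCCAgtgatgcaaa
Cyp8b1: agcctctgagCAAAGTCCAagggcaggaa
Hsd3b3, start 1: ctggaagcttCAAAGTCCActttcagtga
Hsd3b3, start 2: ctggaagcttCAAAGTCCActtccagtga
Aspdh: agtcaggggtCAAAGTCCAaagttcattc
Aadat: gcagaagggaCAAAGTCCAtccacagagg
Pdzk1: aatctttgtcCAAAGTCCAgtgagttcca
Cyp2c70: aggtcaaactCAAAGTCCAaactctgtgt
Sult1b1: gtgagcaggcCAAAGTCCAttcctggtgg
Slc3a1: cttggctggaCAAAGTCCAgccatgatta

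These genes serve different tasks. Hsd3b3 makes steroid hormones, Aadat is an aminotransferase of the kynurenine route, Pdzk1 is a scaffold under membrane carriers, and Slc3a1 is the heavy chain of the cystine carrier. Hsd3b3 had 66.5 and 55.4 RPKM in control and 0.190, 0.0626, 0.135 and 0.597 in null-labelled libraries (-5.98, SE 0.19, limma adjusted p = 3.4e-06). Aspdh had 42.7 and 41.8 against 0.0683, 0.192, 0.192 and 0.224 RPKM (-5.55), and Pdzk1 had 32.5 and 34.96 against 0.319, 0.200, 0.748 and 0.668 (-4.90). Sult1b1, a thyroid hormone sulfotransferase, had 16.95 and 11.99 against 0.00299, 0.146, 0.0713 and 0.00311 (-4.19). In all of these the groups are far apart and each null-labelled value is under 1 RPKM.

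The authors' deposited table of the same comparison holds 12244 genes. At an adjusted p below 0.05 and a log2 fold change of at least 1 in size, 916 were higher and 1260 lower in that table. This cut was chosen here. Of genes called higher here and present in that table, 344 of 377 were also higher there (91.2%, and 41.0% of the table's higher genes that were tested here). Of genes called lower 668 of 675 were also lower there (99.0%, and 57.6% of its lower genes), and none went the opposite way. The same libraries underlie both, so this is a check of the calling and not a second measurement. Hnf4a has a log2 fold change of 1.73 in the authors' deposited table, and Cyp2a4 one of 8.27.

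Genes that fell were compared with the authors' deposited tables of hepatoblasts and of newborn hepatocytes, each against adult hepatocytes, whereas the libraries here are labelled liver. A gene counts as changed in a stage table where its deposited adjusted p is below 0.05. Of the genes that fell here and changed in the hepatoblast table, 588 of 617 were lower in hepatoblasts (95.3%), where 56.6% of all tested genes that changed there were lower. Of genes that rose, 154 of 285 were higher in hepatoblasts (54.0%, against 43.4% of all), and 40.7% were higher there when a difference of at least 2 was required. In newborn hepatocytes 350 of 490 genes that fell here and changed in that table were lower (71.4%, against 52.0%), and 182 of 244 that rose were higher (74.6%, against 48.0%). The genes with the largest rises differed among themselves and between the 2 stages. In the authors' deposited table of newborn hepatocytes Akr1b7 had a log2 fold change of 7.79, Pnliprp1 12.36, Cyp2b9 5.20 and Defb1 4.60. In the same table Gstm2 had -3.29, Gstm3 -3.98 and Orm3 -7.51, and Cyp2a4 had 1.01 (adjusted p = 0.0882 in that table). For hepatoblasts the authors' deposited table has Pnliprp1 higher (8.82), Cyp2a4, Cyp2b9, Gstm2, Gstm3 and Orm3 lower (log2 fold changes -4.04, -2.68, -3.60, -5.72 and -9.77), and Akr1b7 and Defb1 at 0.033 and -2.40 (adjusted p = 0.982 and 0.126). Serpina3k, Ces3a and Fabp1 were lower at both stages in the authors' deposited tables, with log2 fold changes of -7.52, -3.22 and -2.63 in newborn hepatocytes.

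Genes called here were set against the FoxA contrast. The difference between the contrasts (HNF4a null-labelled minus control, less FoxA triple null minus FoxA3 null, each relative to its own median) passed the same thresholds in 1484 genes (11.9%). It was more positive for HNF4a in 635 (5.11%) and more negative in 849 (6.83%). In the FoxA contrast alone 409 of these genes rose (3.29%) and 451 fell (3.63%). Of the 740 genes that fell in null-labelled livers, 523 (70.7%) fell further than in the FoxA contrast by this test, 148 (20.0%) also fell there, which is 32.8% of the genes that fell in the FoxA contrast, and 74 rose there. Of the 426 that rose, 254 (59.6%) differed, 56 (13.1%) also rose there, which is 13.7% of its rising genes, and 35 fell there. The 740 and 426 genes were picked for a large HNF4a difference, which also enters the difference between the contrasts. High shares among them are thus partly set by that choice. The HNF4a libraries are labelled liver and the FoxA libraries hepatocytes, so the deleted factor and the material cannot be told apart in these differences.

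Of the 5 most negative differences from the FoxA contrast, 4 belonged to genes that rose in the FoxA contrast and 1, Serpina3k, to a gene that fell in both. Apoa4 had 63.1 ± 11.6 RPKM in FoxA3 null and 607 ± 117 in triple null hepatocytes (SD, n = 4 each), against 55.5 and 56.1 in control and 0.405, 0.162, 0.178 and 0.937 in null-labelled livers. Its difference of differences was -8.91, SE 0.29, limma adjusted p = 2.27e-10. Mup17, Cyp4a12a and Mup10 rose in the FoxA contrast (2.19, 1.87 and 1.54) and fell in null-labelled livers, with differences of differences of -10.33, -8.80 and -8.69. Serpina3k fell in both, by 1.21 in the FoxA contrast, and its difference of differences was -8.49, SE 0.42, limma adjusted p = 7.01e-09. Fabp1, Apoc3, Apoa2 and Ces3a also fell further in null-labelled livers (differences of differences -7.44, -7.96, -6.27 and -5.79).

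Of the 5 most positive differences, 4 belonged to genes that fell in the FoxA contrast and rose in null-labelled livers, and 1, Cyp2a4, to a gene not called in the FoxA contrast. Gstm3 had 73.4 ± 45.0 RPKM in FoxA3 null and 6.04 ± 4.77 in triple null hepatocytes (SD, n = 4 each), and its difference of differences was 7.85, SE 0.65, limma adjusted p = 8.55e-07. Gstm2 had 21.3 ± 8.06 and 2.38 ± 0.811 RPKM, with 7.54, SE 0.34, limma adjusted p = 1.48e-09. Ces1c had 1066 ± 21.96 and 17.1 ± 4.36 RPKM in the FoxA groups, against 1191 and 1282 in control and 3358, 2930.1, 3158 and 3688 in null-labelled livers, with a difference of differences of 6.999. Igfbp2 had 592 ± 77.5 and 70.5 ± 27.5 RPKM, with 6.61. Cyp2a4 was not called in the FoxA contrast (-0.46), with a difference of differences of 6.43.

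Some genes moved the same way in both contrasts. Cyp8b1 fell in both, by 5.41 in the FoxA contrast, and the difference between them did not pass the threshold (-0.73, SE 0.17, limma adjusted p = 0.0673). Ly6d rose in both, by 4.15 in the FoxA contrast (1.05, SE 0.89, limma adjusted p = 0.421 for the difference), as did Orm3 (4.24 there, 0.49, SE 0.35, limma adjusted p = 0.328) and Cyp2b10 (2.70 there, 1.42, SE 0.72, limma adjusted p = 0.17). A difference that misses the threshold does not show that the responses are equal. Ttr fell further in the FoxA contrast, with a difference of differences of 1.63.

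Gene groups differed from the FoxA contrast in number and direction. Cholesterol synthesis had 16 of 25 genes more negative for HNF4a and 0 more positive, with 1 of 25 lower and 0 higher in the FoxA contrast. Amino acid breakdown had 17 of 40 more negative and 0 more positive, and cytochrome P450 genes had 26 of 47 more negative and 2 more positive. Apolipoproteins had 15 of 25 more negative and 6 more positive. Hepatocyte identity genes went the other way, with 7 of 16 more positive and 2 more negative, and 10 of 16 fell in the FoxA contrast. Coagulation genes were mixed, with 8 of 28 more positive and 6 more negative, while 14 of 28 fell in the FoxA contrast.

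**Figure D5:**
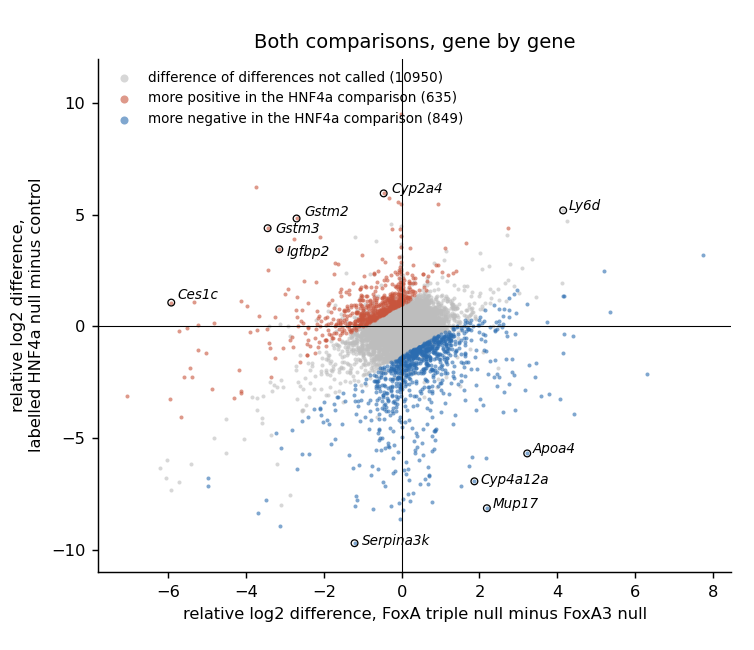
Relative log2 difference in null-labelled against control liver (vertical axis) plotted against that in FoxA triple null against FoxA3 null hepatocytes (horizontal axis) for each tested gene, with colours for the 635 genes more positive and the 849 more negative in the HNF4a contrast. Apoa4 and Mup17 lie low at the right and Gstm3 and Ces1c high at the left.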

How the data were processed

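RNA sequencing of mouse liver was analysed in 2 libraries labelled HNF4a control and 4 labelled HNF4a null, and 8 FoxA hepatocyte libraries served as a second contrast. The authors deposited RPKM values for 33773 gene symbols in 1 matrix; the submitters' processing notes name build mm9, Cufflinks 2.2.1, SAMtools and DESeq2, with no role given. Of the matrix columns 14 were used, 7 matched samples outside these groups, and 9 matched no sample. The liver columns carry barcodes in place of replicate numbers. The authors' deposited comparison tables hold log2 fold changes and adjusted p-values, which were read as given. Symbols with at least 1 RPKM in 2 of the 6 libraries were kept, 1 was added, and log2 values were fitted with limma 3.58.1 in R 4.3.3 (eBayes with trend), with Benjamini-Hochberg adjustment over all 12434 genes. The printed adjusted p is the larger of that for the deposited and that for the median-centred difference. The difference between the HNF4a and FoxA contrasts was taken from 1 limma fit over the 14 libraries.

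Absolute depth is unknown, so values carry no counting interval. Relative depth, from the steps of low values, ran from 1 to 1.10 among the liver libraries and from 2.01 to 2.42 among the FoxA ones. In the liver libraries the 50 highest genes held 58.0% to 66.2% of summed RPKM, and 2.45% to 3.00% of positive values were under 1e-06. The summed RPKM therefore depends on a few abundant RNAs, mitochondrial and small RNAs among them. No 2 libraries held identical values.

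Named genes are Hnf4a, the FoxA genes and the 4 marker genes, the 12 highest and 12 lowest called genes with at least 5 RPKM in the higher group and no overlap (without small RNAs, predicted genes, clone symbols and pseudogenes), the 4 largest called differences of each gene list, members with a textbook role in the list, and the 5 highest and 5 lowest differences from the FoxA contrast; some genes these rules name are not reported here. The genes, lists and tests were chosen with earlier results of these data known. The fit was tested on simulated data. Promoters of RefSeq build GRCm38.p6 were matched by symbol. The deposited HNF4a peak list, in build mm9, was not joined to these genes and is not used here. Alternatives covered the pseudocount, the minimum RPKM, the centring, the minimum difference, quantile scaling, the replicate number as a block in the FoxA fit, and each library left out.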

Additional observations from a re-analysis of the deposited data

Results flagged for a closer look

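Of 125 genes named by rule, 11 had 1 null-labelled library standing apart from the other 3, by a gap to its neighbour past Dixon's critical value for 4 values. Chance gives such a gap in about 1 in 20 groups of 4. The library apart was N2 in 5 of the 11 genes, N4 in 4, N3 in 2 and N1 in 0.

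In N2 the RPKM was 40.3 for Cyp2b9, a steroid hydroxylase, and 0.766 for Slco1a1, an organic anion importer, both below the other null-labelled libraries. In the same library it was 2.28 for the asparagine synthetase Asns, 7.60 for the cell cycle inhibitor Cdkn1a and 427 for fibronectin, Fn1, all above the others. In N4 the RPKM was 54.3 for the carrier Slc22a26, 3.73 for the factor XIII subunit F13b, 0.0573 for the carrier Slc22a7 and 1839 for transferrin, Trf, each above the others. In N3 it was 0.437 for the elongase Elovl3, below the others, and 25.9 for Prom1, above them. The values of Slco1a1, Slc22a7 and Elovl3 are each under 1 RPKM, and no cause was tested for any of these libraries.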

How the results depend on the processing

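Called list members, of 805 tested, kept their direction in each of 19 alternatives in which they were tested (665 members at a minimum of 5 RPKM, 758 to 805 in the others), and 29 of the 122 called genes among 125 named by rule lost their call in at least 1. Called genes numbered 1807 on deposited differences alone (1067 higher), 3242 with no minimum difference (1783 higher, 1459 lower) and 428 with a minimum of 2 (84 higher, 344 lower). Genes called higher numbered 819 with a pseudocount of 0.1 and 839 with no minimum RPKM. Differences from the FoxA contrast numbered 2633 with no minimum difference, with 1377 more positive, and 975 were more positive with a pseudocount of 0.1. With 1 library left out, called genes ranged from 937 to 1196 (405 to 443 higher, 532 to 753 lower) and differences from the FoxA contrast from 1335 to 1552 (567 to 684 more positive, 768 to 868 more negative). Without a control, genes expressed in control liver alone cannot reach the minimum in 2 libraries and leave the test. Of the 312 called list members, 42 lost the call with at least 1 library left out, 23 of them without C1 and 24 without C2. Protein-coding genes alone, an alternative chosen after seeing the data, gave 375 higher and 670 lower.

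Shares in the authors' deposited stage tables moved as follows, where the stricter table threshold is an adjusted p below 0.01 and a log2 fold change of at least 1. Genes that fell were lower in hepatoblasts in 92.6% (pseudocount 0.1), 97.9% (minimum of 5 RPKM), 92.2% (quantile scaling), 93.3% (relative differences alone), 90.6% (no minimum difference) and 98.0% (minimum difference of 2), and lower in newborn hepatocytes in 75.7% (stricter table threshold) and 77.1% (minimum difference of 2). Genes that rose were higher in hepatoblasts in 68.9% (pseudocount 0.1), 64.3% (pseudocount 0.5) and 40.7% (minimum difference of 2), and higher in newborn hepatocytes in 81.4% (pseudocount 0.1) and 64.3% (no minimum difference). With 1 library left out these shares ranged from 95.0% to 96.3% and 70.9% to 72.5% for genes that fell, and from 54.0% to 56.7% and 75.0% to 77.0% for genes that rose. CAAAGTCCA was in 6.47% of genes that fell with a minimum difference of 2.

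No paired analysis was possible because the liver columns carry barcodes in place of replicate numbers. In the FoxA fit the replicate block gave 1452 differences from the HNF4a contrast, 620 more positive and 832 more negative, and same-numbered FoxA libraries had correlations of deviations of -0.115, -0.069, -0.362 and 0.0367, so their numbers do not pair them. Unknown depth and 2 control libraries limit what low genes can show.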
